A study of Mus musculus with 6 samples.

Results

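A set of 7 long noncoding RNAs known from muscle was followed in the gastrocnemius, the large calf muscle, of aged mice: Malat1, Neat1 and Kcnq1ot1, which stay in the nucleus, and Meg3, Rian, Mirg and H19, which come from imprinted loci. They were picked by gene symbol. Of the 7, 6 were among the 23238 distinct symbols of the count tables and all 6 passed the filter on low counts, while Mirg had no row and has no value here. The animals were wild type (C57/BL6J), and both groups were 26 months old. Vehicle animals (n = 3 libraries) received DMSO at 5% in saline by mouth, and farnesol animals (n = 3) received farnesol, a sesquiterpene alcohol, at 350 mg/kg, in both cases over 30 days. The labels call the libraries biological replicates but give neither the sex nor whether each came from its own mouse, so p-values measure only the spread between these libraries, which may be technical.

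Long noncoding RNAs are transcripts that are not translated and act, where a function is known, as RNA. Malat1 gathers in nuclear speckles, the stores of splicing factors, and Neat1 is the scaffold of paraspeckles, nuclear bodies that hold RNA and RNA-binding proteins. Kcnq1ot1 is made from the paternal copy of the Kcnq1 locus and keeps neighbouring genes of that copy silent. Meg3, Rian and Mirg are expressed from the maternal copy of the Dlk1-Dio3 domain and host small nucleolar RNAs and microRNAs. H19, from the maternal copy next to Igf2, is abundant in embryonic muscle and is among the imprinted transcripts that stay high in adult muscle.

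The libraries held 9895700 to 12707751 counts. Ttn, Myh4 and Acta1, defining genes of muscle fibres, led the muscle marker list, all of whose 12 genes were detected. Farnesol replicate 1 stood apart from the others in its share of ribosomal RNA precursor. The ribosomal RNA precursor Rn45s took 4.97% of its counts, against 9.92% to 15.4% in the other 5 libraries. In edgeR's quasi-likelihood fit to 11674 genes, 0 reached an adjusted p under 0.05 (0%), and 351 had an unadjusted p under 0.05 (3.01%). DESeq2 also called 0 genes.

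None of the 6 measured RNAs changed past the threshold after farnesol. Meg3 stood at 1.44-fold (95% interval 0.961 to 2.15) and was the 1 RNA whose farnesol libraries all lay above its vehicle libraries. Malat1 was lower on average, at 0.806-fold (0.588 to 1.11), and its lowest library was farnesol replicate 1. Neat1 stood at 0.887-fold (0.698 to 1.13), H19 at 0.955-fold (0.764 to 1.19) and Kcnq1ot1 at 1.04-fold (0.816 to 1.32). Rian was counted too rarely to say more than 0.934-fold (0.285 to 3.06). With all 6 libraries, no member had an unadjusted edgeR p under 0.05.

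The levels fell into 3 ranges, given in CPM, counts scaled to a common library total, with trimmed-mean (TMM) factors. Malat1, H19, Neat1 and Kcnq1ot1 each had a mean over 100 CPM, a level that 1077 of the tested genes reached. Meg3 averaged 10.8 CPM and Rian 1.31 CPM over the 6 libraries, so the word abundant fits the first 4 RNAs and not these 2. Per kilobase of the longest annotated transcript, Malat1 ran from 1056 to 2311 CPM and H19 from 541 to 698 CPM. Neat1 ran from 42.9 to 64.6 CPM per kilobase on its long transcript, or from 296 to 447 on its short one. On the same scale Kcnq1ot1 reached 2.05 to 3.18, Meg3 0.472 to 1.05 and Rian 0.04998 to 0.379. None of these ranges overlapped its neighbour in that order, and H19 stood above Neat1 with either Neat1 transcript. Without division by length, H19 ran from 1236.9 to 1596.1 CPM and Neat1 from 890.01 to 1342.5 CPM, so they overlapped. In vehicle replicate 2, H19 held 0.921 times as many counts as Neat1. The libraries were made with a kit that reads transcripts near the 3′ end, so counts need not grow with length. The order per kilobase then rests on a division that may not apply to these counts. Whether counts grow with length here was not tested.

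**Figure D1:**
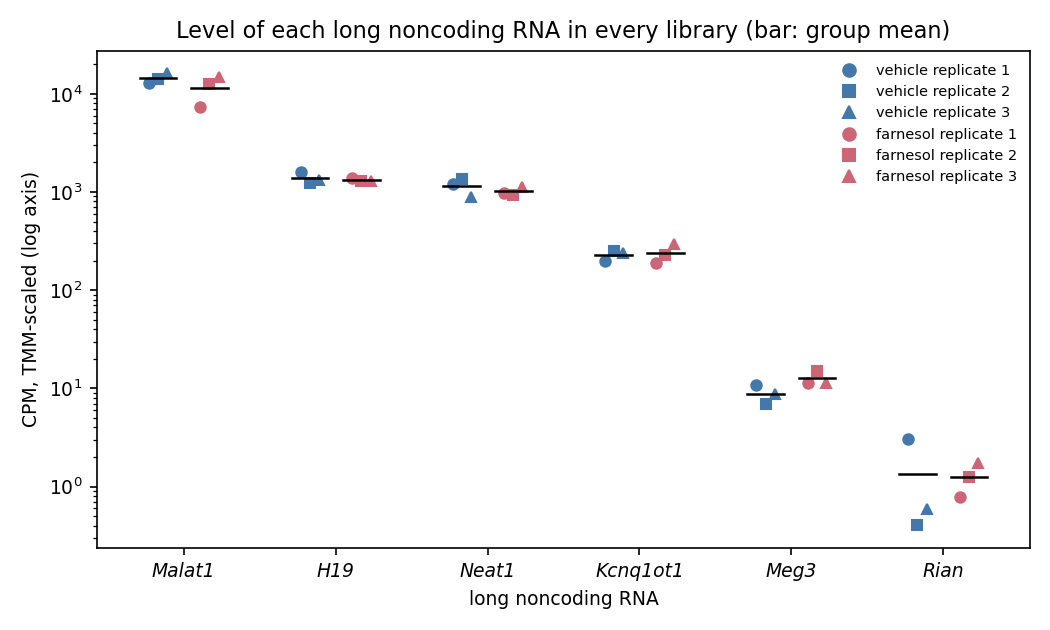
Level of the 6 measured long noncoding RNAs in each library, in TMM-scaled CPM on a log axis, with vehicle in blue, farnesol in red, 1 marker shape per replicate number and a bar at the group mean. Malat1 lies highest, at means of 14364 and 11581 CPM, and Rian lowest, at 1.35 and 1.27 CPM.

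Malat1 is a single-exon gene on chromosome 19 (5795690 to 5802672, minus strand, mm10), and Neat1 lies 22.0 kb away on the same strand (5824708 to 5845480). Because the library kit primes on poly(A), the 3′ ends of these RNAs are shown here as GENCODE annotates them. Neat1 has a short transcript with a poly(A) tail and a long one that builds the paraspeckle. The long one ends, like mature Malat1, where RNase P cuts, at an A-rich stretch that folds back on a U-rich stretch. The last 60 bases of the short Neat1 transcript, of 3004 bases, hold the poly(A) signal AATAAA, in capitals:
Neat1 short: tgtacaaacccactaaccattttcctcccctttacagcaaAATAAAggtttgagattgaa
The last 60 bases of the long transcript, of 20771 bases, and the 60 bases of Malat1 that end 292 bases before its annotated end share a U-rich stretch of 16 bases and the A-rich motif AAAAAGCAAAA, both in capitals and written as DNA:
Neat1 long: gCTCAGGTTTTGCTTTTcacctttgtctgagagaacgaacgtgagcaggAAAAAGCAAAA
Malat1: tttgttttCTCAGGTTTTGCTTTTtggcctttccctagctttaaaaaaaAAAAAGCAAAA
The A-rich motif, searched on the transcript strand and chosen after the Neat1 end had been read, stood in the last 60 bases of 0.0382% of 141515 annotated transcripts and anywhere in 0.437%. The long Neat1 end had no AATAAA, which the last 60 bases of 27.2% of all transcripts and 31.1% of long intergenic noncoding transcripts held. The annotated end of Malat1, past the stretch shown, did hold AATAAA, followed by 16 bases. The count tables give 1 value per gene, so the 2 Neat1 transcripts cannot be told apart in them.

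Malat1 measured 12951, 14002 and 16140 CPM in vehicle replicates 1 to 3 and 7372, 12667 and 14703 CPM in farnesol replicates 1 to 3. Farnesol replicate 1 was the lowest library and the other 2 farnesol libraries lay within or just under the vehicle values, so the groups overlapped. Means were 14364 ± 1625 CPM (SD, n = 3) and 11581 ± 3784 CPM (SD, n = 3). The log2 fold change was −0.31 (SE 0.22; edgeR adjusted p = 1), and ran from −0.07 without farnesol replicate 1 to −0.52 without farnesol replicate 3 (unadjusted p = 0.0492 and adjusted p = 1 in edgeR). The highest Malat1 library stood 2.19-fold above the lowest, a wider spread than that of 96.7% of the genes with a mean of at least 100 CPM, whose median was 1.40-fold. The library with the lowest Malat1 was also the one with the lowest Rn45s share. The library with the highest Malat1, vehicle replicate 3, had the next lowest Rn45s share, 9.92%. Over the 6 libraries, Malat1 and Rn45s had a Pearson correlation of 0.738 but a rank (Spearman) correlation of 0.143. The part of library make-up in the Malat1 values was not tested.

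Neat1 measured 1200, 1342 and 890.0 CPM in the vehicle libraries and 981, 941 and 1122 CPM in the farnesol libraries. Both the lowest and the highest value came from vehicle libraries, and all 3 farnesol values lay between them. Group means were 1144 ± 231 and 1014 ± 95.1 CPM (SD, n = 3 each), with a log2 fold change of −0.17 (SE 0.17). It ran from −0.33 without vehicle replicate 3 to −0.04 without vehicle replicate 2. Within a library, Neat1 counts came to 5.51% to 9.59% of Malat1 counts in vehicle and 7.43% to 13.3% in farnesol libraries. This log2 ratio was 0.21 higher in farnesol, by less than the spread between replicates (SD 0.45 in vehicle and 0.48 in farnesol; exact two-sided permutation p = 0.6, adjusted p = 1 over 2 ratios, smallest possible p = 0.1). The difference was −0.07 without farnesol replicate 1 and −0.05 without vehicle replicate 3.

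Genes around the pair on chromosome 19 were read beside it. Of 19 listed neighbours, 14 were tested, 8 were higher and 6 lower after farnesol, with a median log2 fold change of 0.02 against −0.01 over all tested genes. None passed in edgeR, and Sssca1, at 13.4 and 21.6 CPM, was the 1 with an unadjusted p under 0.05. That was so for 3.01% of all tested genes. Among the more abundant, Ehbp1l1 had a log2 fold change of 0.00 (SE 0.15), Ltbp3, a binding protein of latent TGF-beta, of −0.05 (SE 0.15) and the calpain Capn1 of −0.15 (SE 0.21).

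The protein partners of the 2 nuclear bodies showed small differences. For paraspeckles, 19 proteins were tested, 13 were higher and 6 lower, with a median log2 fold change of 0.06. No gene of this list passed in edgeR, and 0 had an unadjusted p under 0.05. Sfpq, a core paraspeckle protein, measured 62.0 ± 5.57 and 63.9 ± 6.46 CPM, and Hnrnpk, which binds Neat1, 99.8 ± 3.32 and 98.9 ± 6.68 CPM (SD, n = 3 each). Smarca4, a chromatin remodeller, stood at 109 ± 5.60 and 95.9 ± 5.41 CPM, the only one of these 3 whose groups did not overlap. Farnesol was lower without overlap in 4.07% of all tested genes. Of 22 nuclear speckle genes, 6 were higher and 16 lower, with a median of −0.09. None passed, and the splicing factor Srsf5, at 28.1 and 20.3 CPM, was the only one with an unadjusted p under 0.05. Such a p was found for 3.01% of all tested genes.

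In farnesol replicate 1 the nuclear speckle genes also summed to their lowest value, 1812 CPM, against 2116 to 2221 CPM in vehicle libraries. Son, a scaffold protein of speckles, measured 537, 578 and 547 CPM in vehicle and 431, 566 and 495 CPM in farnesol libraries. Rbm25, a splicing regulator, measured 219, 208 and 242 CPM in vehicle and 162, 222 and 216 CPM in farnesol libraries. Both were lowest in farnesol replicate 1, as Malat1 was. Of the other abundant speckle genes, Srrm2 was lowest there too, at 361.5 CPM. Srrm1 was lowest in vehicle replicate 1, at 121 CPM, against 140.9 CPM in farnesol replicate 1. Low values in farnesol replicate 1 were not particular to speckle genes, since Ttn was also lowest in that library, at 51920 CPM. Paraspeckle genes did not share this pattern, with 815 CPM in farnesol replicate 1 against 783 to 865 CPM in vehicle libraries.

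**Figure D2:**
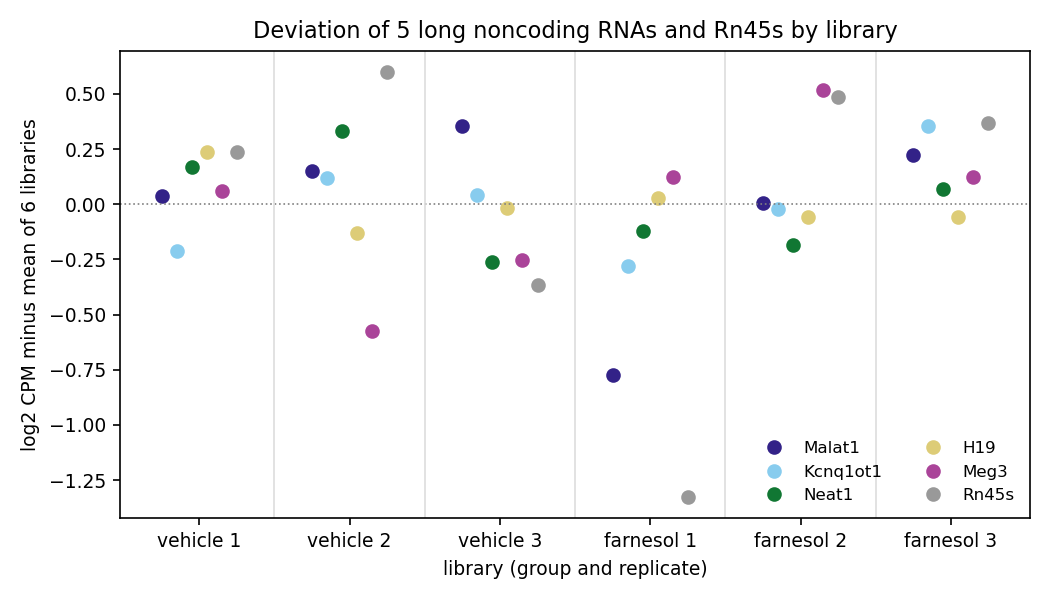
Deviation of log2 CPM from the mean of the 6 libraries for Malat1, Kcnq1ot1, Neat1, H19, Meg3 and the ribosomal precursor Rn45s, by library. In farnesol replicate 1 Malat1 lies at −0.77 and Rn45s at −1.32, while H19 and Meg3 lie above 0 there.

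Kcnq1ot1 lies on chromosome 7 (143213111 to 143296547 in RefSeq, minus strand), inside the potassium channel gene Kcnq1 and antisense to it. Its GENCODE transcript of 93092 bases (143203458 to 143296549) is unspliced and holds a run of 41 A, longer than any run in the other members. The last 60 bases hold the poly(A) signal, in capitals:
Kcnq1ot1: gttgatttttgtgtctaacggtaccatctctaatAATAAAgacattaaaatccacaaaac
Kcnq1ot1 measured 200, 251 and 238 CPM in vehicle libraries and 190, 228 and 296 CPM in farnesol libraries. Farnesol held both the lowest and the highest library, so the groups overlapped fully, with means of 230 ± 26.8 and 238 ± 53.5 CPM (SD, n = 3 each). The log2 fold change of 0.05 (SE 0.17) turned to −0.04 without vehicle replicate 1 and to −0.14 without farnesol replicate 3.

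The handling of strand in the counting is not stated, and Xist and its antisense gene Tsix had nearly the same counts in each library (1916 and 1896 in vehicle replicate 1), so reads of the 2 strands cannot be told apart here. The host gene Kcnq1 held 0 to 25 counts per library, against 2085 to 2871 for Kcnq1ot1. Whether unspliced Kcnq1 RNA is part of the Kcnq1ot1 count was not tested.

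Of the genes near Kcnq1ot1 and H19, 12 of 22 were tested, 8 were higher and 4 lower, with a median log2 fold change of 0.05, and none passed in edgeR or had an unadjusted p under 0.05. Cdkn1c, a cell cycle inhibitor of the domain that Kcnq1ot1 silences, lies 162 kb away and measured 56.11, 47.10 and 28.01 CPM in vehicle and 37.1, 44.9 and 44.3 CPM in farnesol libraries. All farnesol values lay inside the vehicle range. Phlda2, Ascl2 and Slc22a18, others of that imprinted group, had at most 0, 3 and 7 counts in any library.

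H19 lies on chromosome 7 (142575530 to 142578146, minus strand), has 5 exons in its longest transcript of 2286 bases, and carries the microRNA miR-675 in its sequence. The end of that transcript and the 2 mature arms of miR-675 are shown because these are the parts that a 3′ count and the processed product come from. Capitals mark the poly(A) signal in the first and the seed, bases 2 to 8, in the others, whose sequences are from RefSeq (GRCm38.p6):
H19: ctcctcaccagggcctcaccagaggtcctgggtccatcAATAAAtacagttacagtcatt
mmu-miR-675-5p: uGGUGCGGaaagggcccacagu
mmu-miR-675-3p: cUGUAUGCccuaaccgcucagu
The H19 transcript has the highest GC share of the members shown, 55.8%, and its longest run of A is 4 bases. The gene of miR-675 had no row in the tables and is not analysed here.

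H19 measured 1596, 1237 and 1340 CPM in vehicle libraries and 1381, 1301 and 1302 CPM in farnesol libraries. The farnesol libraries lay close together inside the vehicle range. Means were 1391 ± 185 and 1328 ± 46.0 CPM (SD, n = 3 each), and the log2 fold change was −0.07 (SE 0.15), or 0.04 without vehicle replicate 1. The highest library stood 1.29-fold above the lowest, a spread narrower than that of most genes with a mean of at least 100 CPM, since only 25.2% of them had a smaller one. Igf2, the growth factor gene that shares enhancers with H19 and lies 72.6 kb from it, measured 21.2, 21.5 and 20.8 CPM in vehicle libraries, and 21.5, 26.75 and 15.5 CPM after farnesol. The farnesol libraries held both its highest and its lowest value, and the log2 fold change came to 0.01 (SE 0.23). H19 held 57.5 to 75.4 times as many counts as Igf2 in vehicle and 48.6 to 84.2 times in farnesol libraries.

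The fast troponin genes Tnnt3 and Tnni2, whose products regulate contraction, lie 59.3 kb and 131 kb from H19. They were at 11810 ± 2526 and 10290 ± 1127 CPM in vehicle, and at 14250 ± 1878 and 11350 ± 1791 CPM in farnesol libraries (SD, n = 3 each), with log2 fold changes of 0.27 (SE 0.20) and 0.14 (SE 0.18). H19 is also a member of a network of co-expressed imprinted genes. Of 18 other genes of that network tested, 9 were higher and 9 lower, with a median of −0.01. None passed, and Impact, at 15.1 and 9.07 CPM (edgeR adjusted p = 1), was the only one with an unadjusted p under 0.05. Of all tested genes, 3.01% had such a p. Gnas, the gene of a G protein subunit, measured 782 ± 178 and 917 ± 56.9 CPM, and the matrix proteoglycan gene Dcn 654 ± 36.7 and 684 ± 37.3 CPM.

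Meg3 (109540996 to 109571729), Rian (109603945 to 109661716) and Mirg (109734981 to 109749458) follow each other on the plus strand of chromosome 12, with gaps of 32.2 kb and 73.3 kb. RefSeq places 2 microRNA genes within Meg3, 3 within Rian and 10 within Mirg, and none of these had a row in the tables. The annotated 3′ ends of the 3 genes' longest transcripts are shown for comparison with those above, with matches to AATAAA in capitals:
Meg3: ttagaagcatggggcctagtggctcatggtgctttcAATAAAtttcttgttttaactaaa
Rian: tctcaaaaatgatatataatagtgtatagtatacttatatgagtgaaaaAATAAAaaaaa
Mirg: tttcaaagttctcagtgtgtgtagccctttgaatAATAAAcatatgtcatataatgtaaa
All 3 hold AATAAA, in Rian 5 bases from the end within a run of A. Whether the match in Rian works as a poly(A) signal was not tested. The longest run of A in the whole transcript was 16 bases in Meg3, 15 in Rian and 5 in Mirg. Mirg yields miR-410 among others, whose mature 3p arm is given with its seed in capitals, since Mirg itself could not be measured:
mmu-miR-410-3p: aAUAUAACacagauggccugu

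Meg3 measured 10.9, 6.87 and 8.72 CPM in vehicle libraries and 11.4, 15.2 and 11.4 CPM in farnesol libraries, from 68 to 182 counts. Every farnesol library lay above every vehicle library, and vehicle replicate 1 came close to the lower farnesol values. Groups failed to overlap in 8.82% of all tested genes (4.75% with farnesol higher and 4.07% with farnesol lower), beside 1 of the 6 measured members. Means were 8.83 ± 2.02 and 12.7 ± 2.18 CPM (SD, n = 3 each), and the log2 fold change was 0.52 (SE 0.28, 95% interval −0.06 to 1.11; unadjusted p = 0.0753 and adjusted p = 1 in edgeR). The fold change stayed above 0 in all 14 alternative analyses, which draw on the same 6 libraries. It ran from 0.37 without farnesol replicate 2 to 0.70 without vehicle replicate 1 (unadjusted p = 0.0366 and adjusted p = 1 in edgeR). With groups that do not overlap, leaving out 1 library could hardly turn the sign, so the constant direction adds no support. The groups also did not overlap without TMM scaling.

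Rian was counted 32, 4 and 7 times in vehicle libraries and 9, 15 and 17 times in farnesol libraries. Vehicle replicate 1 alone held more counts than the other 2 vehicle libraries together, and the groups overlapped. The levels were 3.06, 0.404 and 0.592 CPM in vehicle and 0.792, 1.254 and 1.75 CPM in farnesol libraries. The log2 fold change of −0.10 (SE 0.83) became 1.31 without vehicle replicate 1, and a difference was not detectable at this depth. Rian counts came to 5.88% to 28.1% of Meg3 counts in vehicle and 6.92% to 15.3% in farnesol libraries. The log2 ratio differed by −0.16 (exact two-sided permutation p = 1, adjusted p = 1 over 2 ratios), less than the spread between replicates, and by 0.52 without vehicle replicate 1 or 0.06 without farnesol replicate 1.

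Of 9 genes listed in and around the Dlk1-Dio3 domain, 5 were tested, 2 were higher and 3 lower, and none passed in edgeR or had an unadjusted p under 0.05. The paternally expressed Dlk1, an inhibitor of adipocyte formation, had 3, 24 and 36 counts in vehicle and 15, 27 and 0 counts in farnesol libraries, and Rtl1 had 10 counts in vehicle replicate 3 and 0 in the other 5 libraries. Dio3, the thyroid hormone deiodinase, had 0 to 10 counts. The most abundant gene of the list, the dynein heavy chain gene Dync1h1, measured 207, 193 and 198 CPM in vehicle and 175, 183 and 175 CPM in farnesol libraries (log2 fold change −0.16, SE 0.14). Its groups did not overlap, with farnesol lower, as in 4.07% of all tested genes. Wdr25, 513 kb from Meg3, measured 2.49, 1.52 and 0.592 CPM in vehicle and 3.08, 2.84 and 3.09 CPM in farnesol libraries (log2 fold change 0.97, SE 0.60). At 7 to 35 counts per library, its groups did not overlap in the opposite direction, with farnesol higher, as in 4.75% of all tested genes.

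**Figure D3:**
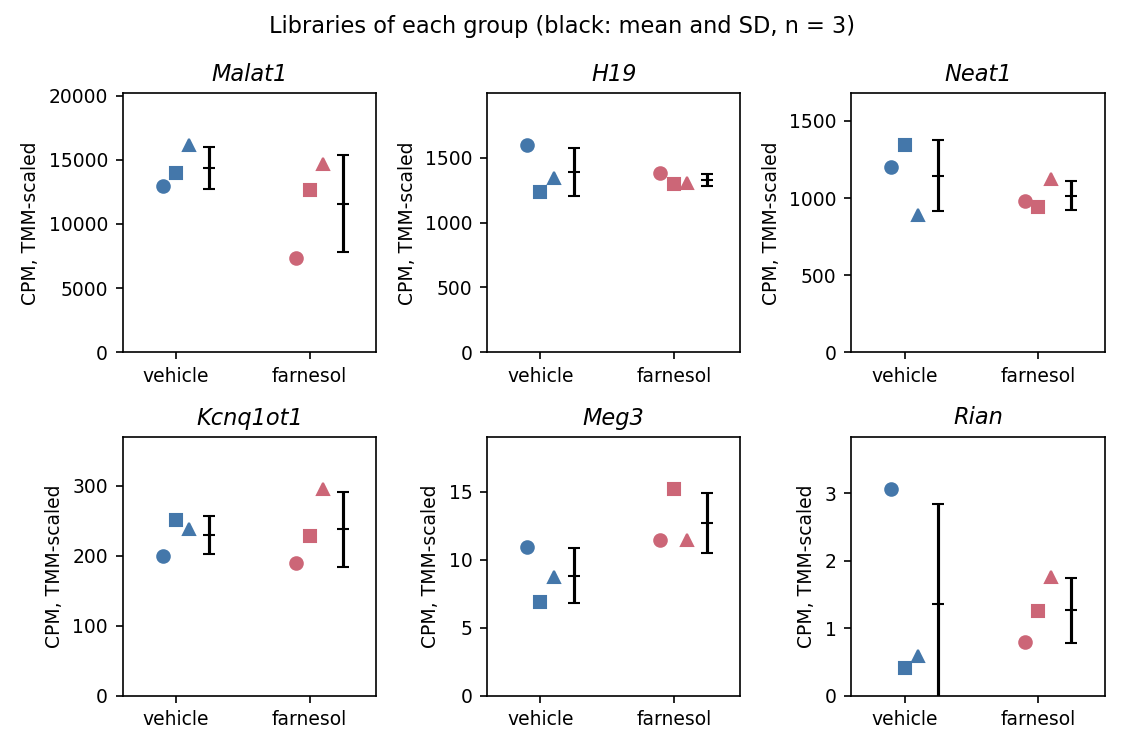
Values of each of the 6 RNAs in the 3 vehicle (blue) and 3 farnesol (red) libraries, in TMM-scaled CPM from 0, with 1 marker shape per replicate number and the mean and SD in black. The groups are apart for Meg3 alone, 1 farnesol library is low for Malat1, and 1 vehicle library is high for Rian, whose lower error bar runs below 0 and is cut off.

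Other long noncoding RNAs were looked at as a list of 38, of which 28 had a row and 18 were tested. Of these, 9 were higher and 9 lower, with a median log2 fold change of 0.03. None passed in edgeR or had an unadjusted p under 0.05. Xist, which coats the inactive X chromosome, measured 183, 167 and 182 CPM in vehicle and 130, 165 and 153 CPM in farnesol libraries (log2 fold change −0.25, SE 0.15). Each farnesol library lay below each vehicle library, as in 4.07% of all tested genes, and farnesol replicate 1 was again the lowest. The gap was narrow, between 165.1 CPM in farnesol replicate 2 and 167 CPM in vehicle replicate 2. The groups of Tsix, whose reads cannot be told apart from those of Xist, overlapped. The Norad homologue 2900097C17Rik measured 140, 127 and 109 CPM in vehicle and 99.6, 103 and 110 CPM in farnesol libraries, with overlapping groups (−0.26, SE 0.15). The snoRNA host Snhg8 ranged from 14.1 to 38.3 CPM in vehicle and from 23.2 to 24.5 CPM in farnesol libraries, and imprinted Peg13 from 19.9 to 25.5 and from 22.0 to 25.1 CPM.

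**Figure D4:**
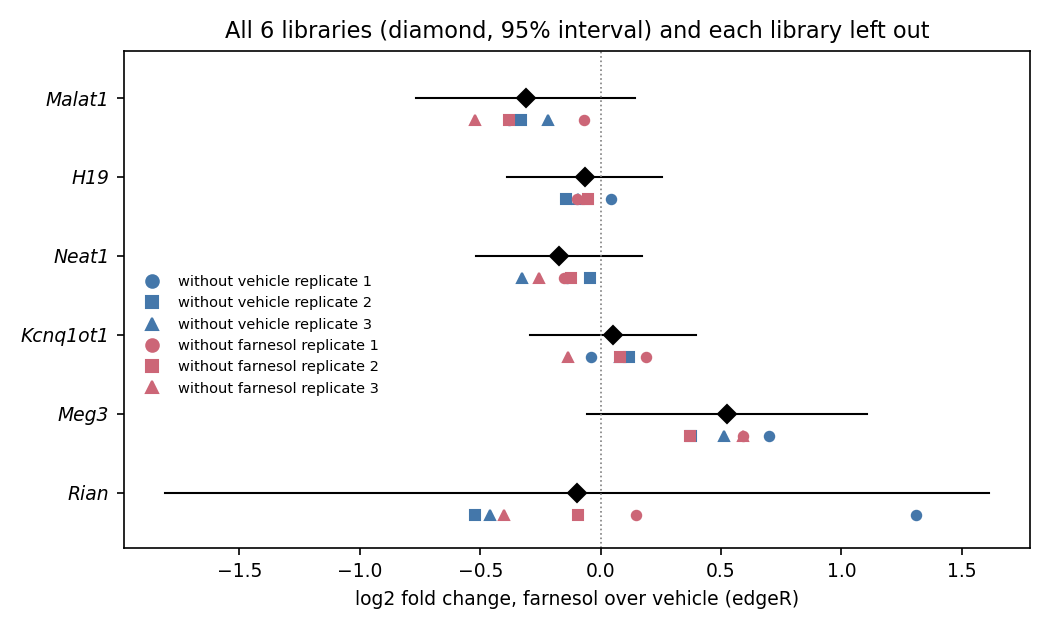
Log2 fold change of farnesol over vehicle from edgeR for the 6 RNAs, with all 6 libraries (diamond, with its 95% interval) and with each library left out (blue for vehicle, red for farnesol, by replicate number). Every interval includes 0, the Meg3 points all lie above 0, and the Rian points run from −0.52 to 1.31.

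The genes whose log2 CPM followed each RNA most closely were sought among 6020 genes with a mean of at least 10 CPM, by Pearson correlation over the 6 libraries. With so many genes and 6 libraries that share their depth and make-up, high values are common, and between 26 and 97 genes per RNA exceeded 0.9. Nearest to Malat1 were Atad3a (r 0.990), the kinase gene Rock1 (0.987) and Zranb2 (0.978), a splicing regulator. Neat1 was followed by Erlec1 (0.997), Usp24 (0.981) and Pds5a (0.975). For Kcnq1ot1 the nearest were Dicer1 (0.985), the microRNA-processing enzyme, Prkaa2 (0.973), a catalytic subunit of the AMP-activated kinase, and Hip1 (0.971). H19 was followed by Sec14l1 (0.985), Srprb (0.984) and Neurl1b (0.982), and Meg3 by Laptm4b (0.979) and Pqlc1 (0.978). For Rian they were Mtss1 (0.985), Ipmk (0.985) and Leprotl1 (0.984). No gene named here was among the nearest of more than 1 RNA.

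Together the 6 RNAs took 1.51%, 1.52% and 2.12% of vehicle counts and 1.10%, 1.43% and 1.71% of farnesol counts. Most of this was Malat1, at 1.22% to 1.84% in vehicle and 0.819% to 1.44% in farnesol libraries. The summed share differed by −0.3055 percentage points (farnesol minus vehicle), about the size of the spread between replicates (SD 0.352 in vehicle and 0.303 in farnesol; exact two-sided permutation p = 0.4, smallest possible p = 0.1). The difference was −0.103 without vehicle replicate 3 and −0.454 without farnesol replicate 3.

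In whole muscle, fewer cells of a type and less RNA per cell cannot be told apart, so markers of other cells are given beside these levels. Satellite cell and new fibre markers summed to 1147 to 1804 CPM in vehicle and 868 to 1712 CPM in farnesol libraries, and 10 of 11 tested members were lower, with Calcr at 0 to 10 counts. This sum was mostly Myh8, and it too was lowest in farnesol replicate 1. Fibroblast and progenitor markers summed to 1222 to 1463 CPM in vehicle and 1309 to 1582 CPM in farnesol libraries (7 of 10 higher), endothelial markers to 259 to 451 and 338 to 428 CPM (6 of 10 higher). Macrophage markers summed to 103 to 241 and 128 to 173 CPM (8 of 9 lower), and nerve and Schwann cell markers to 64.7 to 80.3 and 79.6 to 97.7 CPM (8 of 9 higher). In each of these lists 1 marker had an unadjusted edgeR p under 0.05, beside 3.01% of all tested genes. They were the macrophage marker Adgre1 (log2 fold change −1.04) and the Schwann cell marker Mbp (0.54). Adipocyte markers summed to 642 to 746 CPM in vehicle and 858 to 969 CPM in farnesol libraries, and these sums did not overlap. Of these markers, 10 of 10 were higher, 6 with an unadjusted edgeR p under 0.05, beside 3.01% of all tested genes. The lists were chosen with earlier results of these data known, so this comparison is not independent support. Most of the sum was Lpl, at 393 to 562 CPM in vehicle and 492.7 to 614.5 CPM in farnesol libraries, whose own groups overlapped. All listed markers of these types were detected, none passed in edgeR, and their part in the level of any of the 6 RNAs was not tested.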

How the data were processed

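RNA of the gastrocnemius (500 ng per library) was made into Lexogen QuantSeq 3′ libraries, per the labels' protocols. The deposited tables hold raw read counts per gene symbol, 1 library each. The submitters' processing notes name Bowtie2, bedtools and mm10; versions, annotation, strand handling and removal of copied reads were left unstated (not given in the sources used here). Counts of 35 symbols on more than 1 line were summed.

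Libraries were grouped by title, 3 per group. The fit was edgeR 4.0.16 in R 4.3.3: filterByExpr, TMM, glmQLFit (robust) and glmQLFTest, with Benjamini-Hochberg adjustment over 11674 genes at 0.05. It was tested on simulated data. CPM used total counts times TMM factors. Standard errors were obtained by dividing the size of each log2 fold change by √F. Ratios used an added count of 0.5, and single values an exact two-sided permutation test. A count of 0 allows up to 3 counts, 0.251 to 0.309 CPM by library, for counting error only.

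The members and lists were chosen with earlier results of these data known. Named genes are the members, the 3 most alike genes of each, and the 4 most abundant tested members of each list. A few of these are not reported here. Genes named for an unadjusted p, and Igf2, Dlk1, Kcnq1, Rtl1, Dio3, Tsix, Phlda2, Ascl2, Slc22a18 and Calcr, were chosen after their values were seen. Positions are from RefSeq on GRCm38.p6, transcript ends from GENCODE vM21 on the same build. Alternatives were another normalization or filter, DESeq2 1.42.0, limma-voom 3.58.1, a replicate block and each library left out.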

Additional observations from a re-analysis of the deposited data

How the results depend on the processing

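No alternative brought a member past the adjusted threshold (83 fold changes), and 76 of these kept the direction. EdgeR called 13 genes without the filter on low counts, and 0 to 3 with each library left out, the 3 without vehicle replicate 2. No other alternative called a gene. With limma-voom the log2 fold change of Rian was 0.36 and with the replicate block 0.37. With each library left out, Kcnq1ot1 ran from −0.14 to 0.19, H19 from −0.145 to 0.0424, Rian from −0.52 to 1.31, the log2 ratio of Neat1 to Malat1 from −0.0666 to 0.354 and that of Rian to Meg3 from −0.53 to 0.52. The cause of these reversals was not tested. Scaling moved the median of all genes by less than 0.1. Same-numbered libraries deviated with correlations of 0.04, 0.06 and −0.02, so the numbers were not taken as pairs. Vehicle replicate 3 did not correlate best with its own number, and the block left the count of calls at 0. The planned ratio of Mirg to Meg3 could not be computed. Depth limits Rian (4 to 32 counts) and Meg3 (68 to 182) most.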
